A study of Homo sapiens with 7 samples.

Results

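The histone genes of the HIST clusters were followed in a transcriptome-wide map of N6-methyladenosine (m6A), an internal modification of messenger RNA. The genes were taken by their symbols, HIST1H to HIST4H, which gave 69 transcript rows of 66 genes among 25918 rows of 24721 symbols. The series held 4 libraries immunoprecipitated with an anti-m6A antibody (Synaptic Systems) and 3 input libraries without antibody, all from cells that had no treatment and carry the label HepG2, a line from a human liver carcinoma, here grown in DMEM with serum. Poly(A)-selected RNA had been broken chemically into pieces of about 100 nt before precipitation. The deposited values were 1 table for the 7 libraries together, so no value has a replicate error, depth per library is unknown, and IP was not tested against input. The liver identity of the label was not borne out by its markers. All 18 hepatocyte markers looked up were in the table, 10 of them (ALB, AFP, TTR and APOB included) at its lowest expression quantile, and the highest, FGB, reached 0.619. None of the 18 had a peak. Peaks were rare at such quantiles in all coding rows outside the HIST clusters. They were listed in 0 of 4678 such rows at the lowest quantile and in 11.9% of those above it and under 0.6.

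Core histones H2A, H2B, H3 and H4 form the nucleosome, and linker histone H1 binds the DNA between nucleosomes. Their replication-dependent genes lie in clusters, have no introns as a rule, and are transcribed in S phase. The mRNAs normally end in a conserved stem-loop bound by SLBP in place of a poly(A) tail, although some of these genes also yield longer polyadenylated forms. How much of each form was in the poly(A)-selected RNA was not measured. In mammalian mRNA, m6A is set by a METTL3 and METTL14 methyltransferase within a short purine-rich consensus, is found most often near stop codons and in long exons, and is read by YTH domain proteins that act on mRNA decay and translation.

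The stem-loop is shown first, since it marks the end of the usual histone message and the HIST2H2BE peak lay beyond it. The letters GG, any 3 bases, TTTT, any base, A, any 3 bases and CC were searched on the sense strand after the stop codon of single-exon coding transcripts in GENCODE release 29. Of 29 HIST genes with at least 50 nt annotated there, 25 had them, beginning 24 to 68 nt after the stop codon with a median of 37. In the first 83 nt after the stop codon of 17337 other coding genes the same letters were found in 6 (0.0346%). The 4 HIST genes without a match had 51 to 57 nt annotated after the stop, and 36 further single-exon genes had under 50. Capitals mark the paired stem and lower case the loop, and the forms are ordered by their number of genes (13, 5, 4, 2 and 1).
form in 13 genes: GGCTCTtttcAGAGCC
form in 5 genes: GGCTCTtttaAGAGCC
form in 4 genes: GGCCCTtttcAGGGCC
form in 2 genes: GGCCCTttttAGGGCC
form in 1 gene: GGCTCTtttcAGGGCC
The commonest form was that of HIST2H2BE and HIST1H3H, the second that of HIST1H2BD and the third that of HIST4H4, all genes with a peak. The single gene of the last form was HIST1H2AG, which had none. In 17 of the 25 genes the annotated transcript ran on for over 100 nt past the stem-loop.

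Few histone rows carried m6A peaks for how strongly they were expressed. A peak was listed in 8 of 69 rows (11.6%), against 27.9% of all rows of the table and 35.1% of coding rows outside the clusters. Expression is given as a quantile that ranks rows from 0 to 1. The HIST rows had a median of 0.804, and the 55 rows above the lowest quantile (0.314) a median of 0.875, against 0.591 for all coding rows outside the clusters and 0.693 for those above the lowest quantile. Above the lowest quantile 8 of 55 HIST rows had a peak (14.5%), against 45.9% of other coding rows. At quantiles of 0.9 and over it was 6 of 24 HIST rows (25.0%) against 69.8% of other coding rows.

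Histone rows are very short, and other short coding rows also had fewer peaks than long ones. The HIST spans ran from 354 to 8547 nt with a median of 460, and 63 of 69 were under 1000 nt. Of the 49 such short HIST rows above the lowest quantile, 5 had a peak (10.2%), against 15 of 113 short coding rows outside the clusters (13.3%). These sets differ in expression, with median quantiles of 0.883 and 0.595. At quantiles of 0.6 and over, a limit chosen after the values were seen, 5 of 41 short HIST rows had a peak (12.2%), against 15 of 53 (28.3%) and against 65.0% of all other coding rows. From 0.6 to 0.8 it was 0 of 9 short HIST rows against 5 of 24, and from 0.8 to 0.9 it was 0 of 9 against 2 of 5. At quantiles of 0.9 and over, 5 of 23 short HIST rows had one (21.7%), against 8 of 24 (33.3%). Under 700 nt the counts were 4 of 43 HIST rows (9.30%) and 2 of 43 others (4.65%). In each of these 3 ranges of quantile the share of short HIST rows was under that of other short coding rows, and under 700 nt, without matching on expression, it was above it. The counts are small, and no test was made of these differences. The 6 longer HIST rows, of 1795 nt and over, had a peak in 3, against 46.1% of long coding rows outside the clusters above the lowest quantile.

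**Figure D1:**
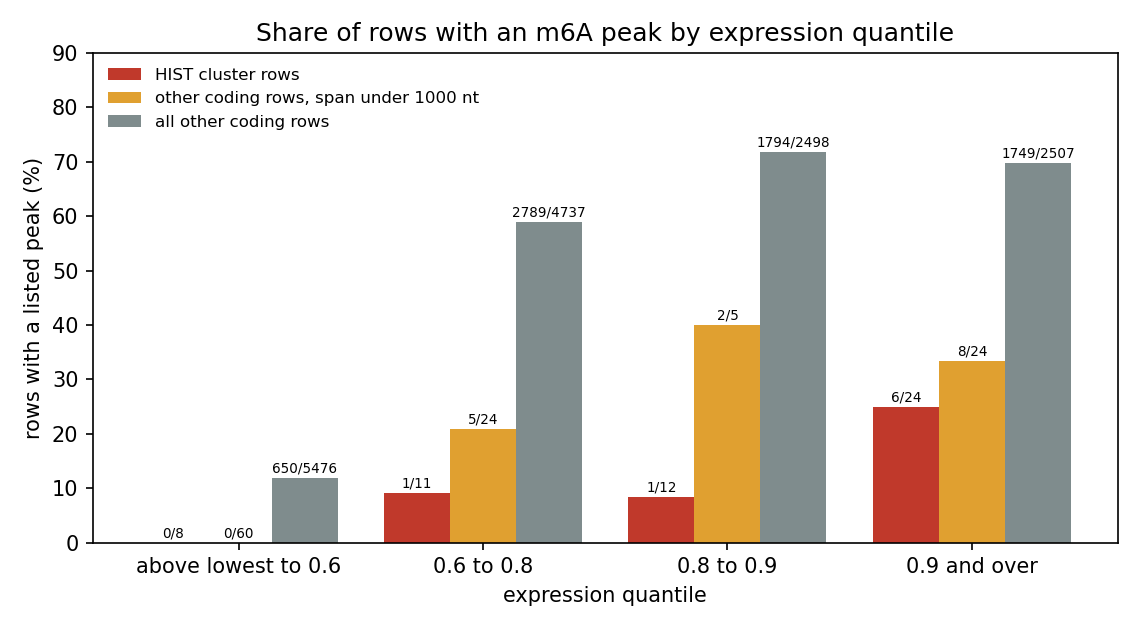
Share of rows with a listed m6A peak (y axis, percent) by expression quantile (x axis), for HIST cluster rows, other coding rows with a genomic span under 1000 nt and all other coding rows. Numbers over the bars are rows with a peak over rows in the bin, and at quantiles of 0.9 and over these are 6 of 24 HIST rows, 8 of 24 short rows and 1749 of 2507 other coding rows.

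Peaks were spread thinly over every family. They were listed in 1 of 6 rows of the linker histone H1, 2 of 16 of H2A, 2 of 18 of H2B, 2 of 14 of H3 and 1 of 15 of H4. By cluster, HIST1 had 6 of 54, HIST2 1 of 11, HIST3 0 of 3 and HIST4, which is the single gene HIST4H4, had 1 of 1. No family stood out from these counts. None of the 8 rows had more than 1 peak, as was the case in all but 1 of 15 other short coding rows with a peak, whereas 44.7% of all other coding rows with a peak had more. The rows with a peak lay between quantiles 0.769 and 0.982 (median 0.943), inside the range of the 47 expressed rows without one (0.446 to 0.988, median 0.859).

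**Figure D2:**
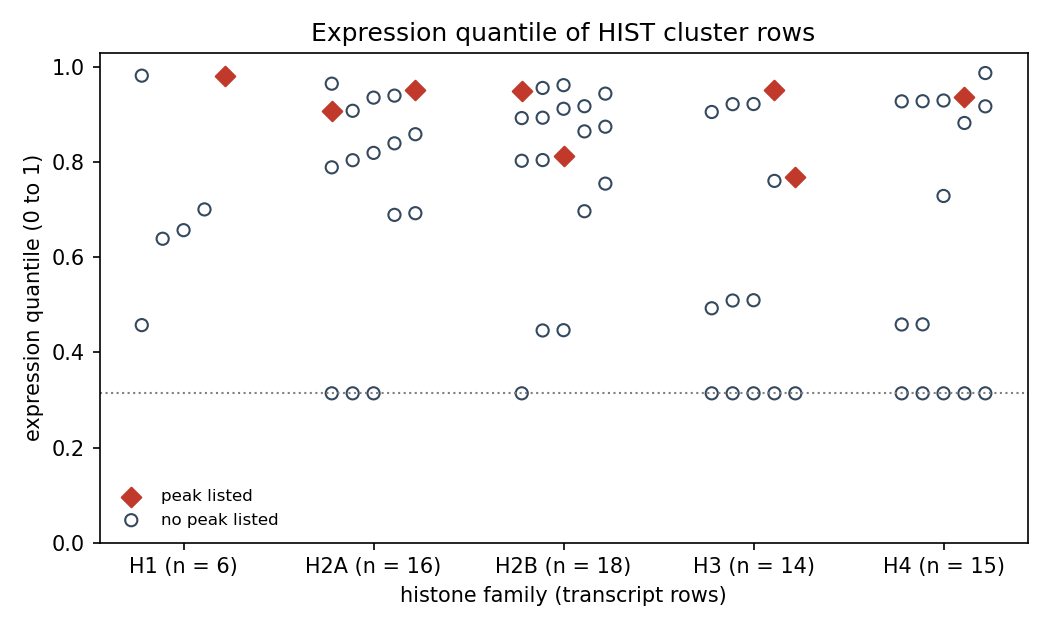
Expression quantile (y axis, 0 to 1) of the 69 HIST rows by histone family (x axis). Filled diamonds are the 8 rows with a listed peak, open circles are rows without one, and the dotted line is the lowest quantile of the table, 0.314, where 14 rows lie. In every family but H3, at least 1 open circle lies above the diamonds.

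In 5 short single-exon rows the peak lay at the start of the transcript, which the authors' annotation gives to positions under 200 nt. HIST1H1C, a linker histone gene (chromosome 6, 26163947 to 26164678, minus strand), was at quantile 0.982 and had its peak at position 93 of 732 nt with a score of 2.83. HIST1H2BD, an H2B gene (chromosome 6, 26266328 to 26266850, plus strand), was at 0.949 with a peak at position 97 of 523 nt and a score of 2.57. HIST1H2AM, an H2A gene (chromosome 6, 27968456 to 27968942, minus strand), was at 0.952 with a peak at position 79 of 487 nt and a score of 2.51. These 3 were the start peaks with the higher scores. HIST1H2AH, also H2A (chromosome 6, 27222887 to 27223325, plus strand), was at 0.907 with a peak at position 61 of 439 nt and a score of 2.11. HIST4H4, an H4 gene outside the large clusters (chromosome 12, 14814921 to 14815332, minus strand), was at 0.936 with a peak at position 72 of 412 nt and a score of 2.01. The 5 positions ran from 61 to 97 with a median of 79, against a median of 97 (quartiles 83 and 123) for 1547 start peaks of other coding rows. No peak in any row was listed below position 51. Coordinates are the table's, with starts counted from 1, and no source used here names their genome build.

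The other 3 peaks lay in longer rows and further down. HIST2H2BE, an H2B gene of the HIST2 cluster (chromosome 1, 148122634 to 148124856, minus strand), was at 0.813 and had its peak at position 871 of a single exon of 2223 nt, in the 3' UTR, with a score of 3.00. HIST1H3D, an H3 gene (chromosome 6, 26304991 to 26307443, minus strand), was at 0.952 with a peak around the stop codon, at position 704 in exon 2 of 486 nt, and a score of 2.90. This row overlaps that of HIST1H2AD on the same strand by 453 nt at its 5' end. Reads of the overlap may belong to either, but the peak at position 704 lies past it. HIST1H2AD (0.936) had no peak. HIST1H3H, also H3 (chromosome 6, 27883956 to 27886293, plus strand), was at 0.769 with a peak around the stop codon, at position 2251 of 2338 nt, and a score of 2.25. The 3 longer rows without a peak were HIST1H2BK (span 8547 nt, 0.893), HIST1H2AG (2251 nt, 0.859) and HIST2H2BF (1795 nt, 0.697). The HIST1H2BK row spans the whole of HIST1H4I on the other strand, and neither had a peak.

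**Figure D3:**
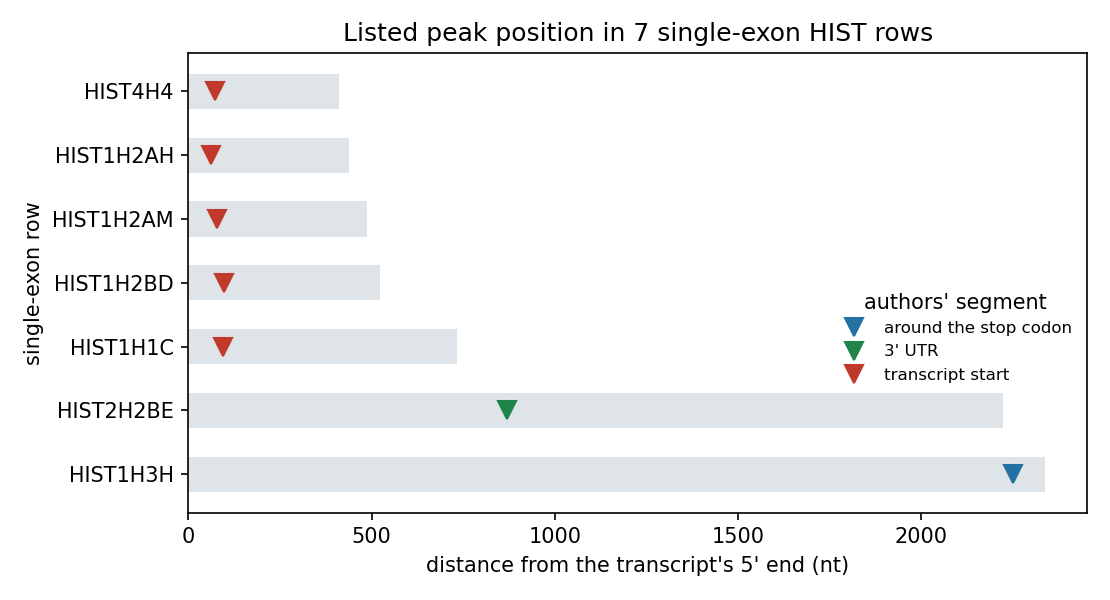
Position of the listed peak (triangle, x axis in nt from the 5' end) in the 7 single-exon HIST rows with a peak, with grey bars for the row's length. Triangle colour is the authors' segment, and the 5 short rows have it between positions 61 and 97 while HIST2H2BE and HIST1H3H have it at 871 and 2251. HIST1H3D, with more than 1 exon, is not drawn.

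By segment, 5 of the 8 peaks (62.5%) lay at the transcript start, 2 (25.0%) around the stop codon and 1 in the 3' UTR, against 12.5%, 27.6% and 20.5% of 12416 peaks in other coding rows. None lay in the inner coding sequence, where 36.6% of the other peaks were. Positions under 200 nt count as the transcript start, and HIST rows had a median span of 460 nt. Most of them therefore leave little room for an inner coding segment. How far row length sets these shares was not tested. Among the 16 peaks of other short coding rows, 4 were start peaks, 8 lay around the stop codon and 2 in the inner coding sequence. None of the 5 peaks in short HIST rows lay around the stop codon. Counts of 5 and 16 are small, and no test was made of the difference.

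Scores of the histone peaks were all low. The 8 ran from 2.01 to 3.00 with a median of 2.54, and all 8 were under the median of the whole table (3.15), whose lowest score was 2.00. The authors' score has no stated scale and is used here only to rank. HIST2H2BE ranked highest, above 44.4% of all peaks, and HIST4H4 lowest, above 0.580%. Start peaks of other coding rows also had a median under that of the table, 2.73, against 2.51 for the 5 HIST start peaks. Within the start segment HIST1H1C scored above 55.2% of peaks, HIST1H2BD above 40.3% and HIST1H2AM above 36.5%, while HIST1H2AH and HIST4H4 scored above 8.31% and 0.838%. HIST1H3D and HIST1H3H scored above 31.1% and 9.62% of stop codon peaks, and HIST2H2BE above 42.2% of 3' UTR peaks.

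**Figure D4:**
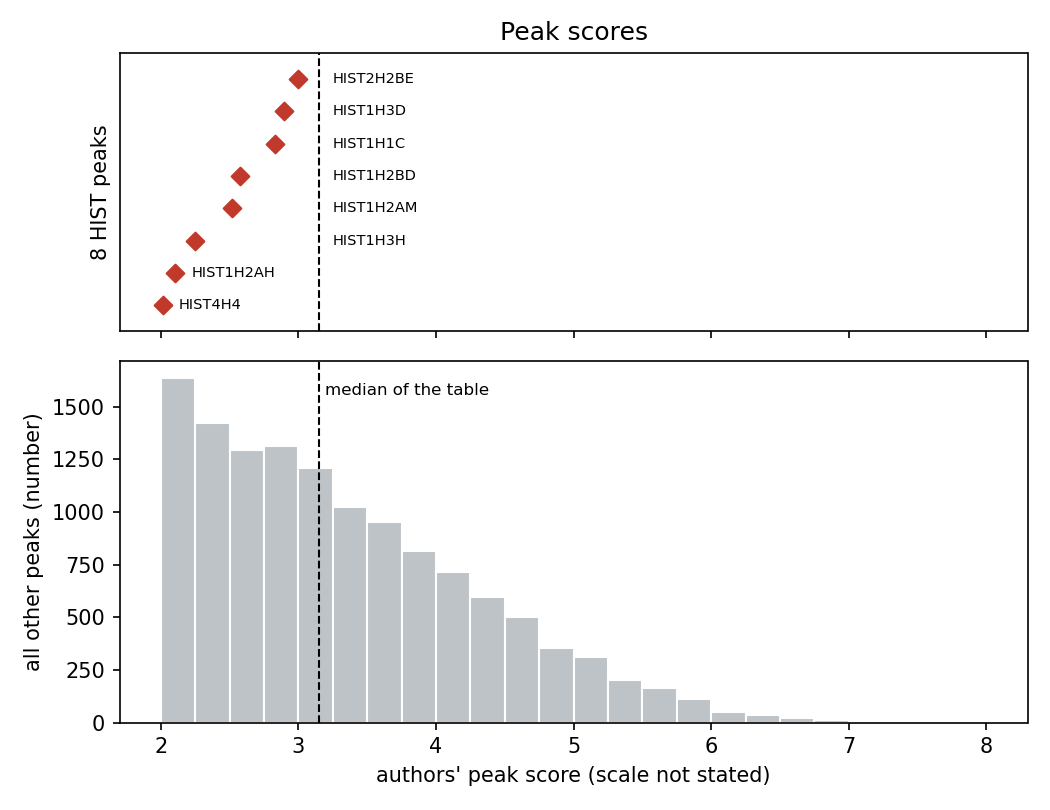
Authors' peak score (x axis, scale not stated) of the 8 HIST peaks, named in the upper panel, and the number of all other peaks by score in the lower panel (y axis). The dashed line is the median of the table, 3.15, and all 8 HIST peaks lie to its left, between 2.01 and 3.00.

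The sequence under a peak could be read where a RefSeq gene (GRCh38.p14) had the length of the table's row to within 1 nt, which held for HIST1H1C, HIST1H2AM, HIST4H4 and HIST2H2BE. The first 50 nt came from RefSeq and the rest from GENCODE. The windows below cover the coding bases within 50 nt of the start peaks, and 30 nt of the 3' UTR at the HIST2H2BE peak, as DNA letters from 5′ to 3′. Capitals mark the m6A consensus of 2 purines, A, C and then A, C or T.
HIST1H1C, positions 43 to 143: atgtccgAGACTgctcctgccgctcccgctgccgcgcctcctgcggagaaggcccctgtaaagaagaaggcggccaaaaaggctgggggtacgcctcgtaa
HIST1H2AM, positions 37 to 129: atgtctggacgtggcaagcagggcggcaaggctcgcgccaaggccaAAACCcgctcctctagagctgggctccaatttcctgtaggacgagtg
HIST4H4, positions 48 to 122: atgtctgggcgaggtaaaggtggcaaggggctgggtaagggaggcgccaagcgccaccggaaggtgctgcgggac
HIST2H2BE, positions 857 to 886: ggttccgcAAACActgcgtgacagctctgt
All 3 start windows begin at the ATG, and the listed positions fell 51, 43 and 25 nt into the coding sequence of HIST1H1C, HIST1H2AM and HIST4H4. HIST1H1C had 1 consensus in its window, AGACT, 41 nt from the peak. HIST1H2AM had 1, AAACC, 6 nt from it, and HIST4H4 had no complete one within 50 nt. The HIST4H4 window ends in GGAC, which lacks only the last base of a consensus, and that base lies outside the window. The HIST2H2BE peak had 3 within 50 nt, the nearest AAACA at 4 nt. Its stem-loop began at position 480, so that the peak lay 391 nt past the start of the stem-loop, in the part of the transcript that the usual stem-loop message does not have. The HIST4H4 row, by contrast, had its stem-loop at position 393 of 412 nt.

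Histone coding sequences held fewer consensus sites than others. There were 0.944 per 100 nt in the 66 HIST genes, against 1.52 in the longest coding sequence of each of 19422 other genes in GENCODE. HIST genes with and without a peak had 0.911 and 0.949. Families differed, with 1.49 in H1, 1.43 in H3, 0.839 in H2A, 0.742 in H4 and 0.470 in H2B. GGACT, the pentamer most often tied to m6A, was found in 0 of 18 H2B genes, 1 of 15 H2A, 1 of 14 H4, 1 of 6 H1 and 11 of 13 H3 genes. In all that made 14 of 66 HIST genes (21.2%), against 72.8% of the other coding genes, whose coding sequences are longer on average. Per 100 nt there were 0.0573 in HIST genes, 0.226 in those of H3 alone, and 0.111 in other coding genes. These are descriptions of annotated sequence, not of methylated sites.

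The H3 pentamer sat in the same place in each gene, beginning at coding position 231 with its A 178 nt before the end of the coding sequence. It is shown for both H3 genes with a peak, for 2 strongly expressed ones without and for the 2 genes whose letters differ there, with the pentamer in capitals.
HIST1H3D, peak: agatcgcgcaGGACTtcaagactga
HIST1H3H, peak: agatcgcgcaGGACTtcaagaccga
HIST1H3G, no peak: aaatcgctcaGGACTtcaagacaga
HIST1H3F, no peak: agatcgcgcaGGACTtcaagaccga
HIST1H3B, no peak: aaatcgcccaAGACTtcaagaccga
HIST1H3J, no peak: aaatcgcgcaGGATTtcaaaaccga
HIST1H3F and HIST1H3H had the same 25 letters, the first at quantile 0.906 without a peak and the second at 0.769 with one. Of the 11 genes with GGACT here, 7 were above the lowest quantile and 2 of these had a peak, so the letters were also present in expressed H3 genes with none listed. The exact distance of either peak from this pentamer was not measured, because the HIST1H3D and HIST1H3H rows matched no RefSeq gene of equal length. The single-exon HIST1H3H row has 87 nt past its peak, fewer than the 178 nt from the pentamer's A to the coding end. In HIST1H3H the pentamer therefore lay upstream of the peak, further from it than the windows shown for other peaks reach.

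Many of the most expressed histone rows had no peak. HIST1H4E, an H4 gene (chromosome 6, 26312852 to 26313228, plus strand), stood at 0.988, the highest of all 69 rows. The linker histone gene HIST1H1E followed at 0.982, close to HIST1H1C, which did have a peak. HIST1H2AC (H2A) stood at 0.965, and the H2B genes HIST1H2BH, HIST1H2BF and HIST1H2BN at 0.962, 0.956 and 0.945. In all, 18 of the 24 HIST rows at quantiles of 0.9 and over had no peak, all 18 with spans under 1000 nt. In that range, 18 of 23 short HIST rows had none, against 16 of 24 other short coding rows. Of all coding rows outside the clusters there, 758 of 2507 had none. The other expressed linker histones, HIST1H1D, HIST1H1A and HIST1H1B, stood at 0.701, 0.657 and 0.639 without a peak. HIST1H1T, the testis linker histone, stood at 0.458.

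Some HIST rows stood at the lowest expression quantile, as did 4678 of 19896 coding rows outside the clusters. There were 14 of 69 such HIST rows, 3 of H2A, 1 of H2B, 5 of H3, 5 of H4 and none of H1. Of these, 6 were the paired listings of HIST2H4A, HIST2H3C and HIST2H2AA3, symbols that the table gives at 2 places each on chromosome 1. Their coding sequences in GENCODE are identical to those of HIST2H4B, HIST2H3A and HIST2H2AA4. HIST1H4J and HIST1H4K, the other pair with identical coding sequence, stood at 0.459 each. How reads that fit both copies were counted is not given in the sources used here, so the values of these 5 genes are uncertain. The other 8 genes at the lowest quantile were HIST1H2AA and HIST1H2BA, which are known from testis, with HIST1H3C, HIST1H3E, HIST1H3I, HIST1H4F, HIST1H4G and HIST1H4L. Their longest exact stretch shared with another HIST coding sequence had a median of 37 nt (20 to 48), against 48 nt (20 to 332) for the 53 genes above the lowest quantile without an identical copy. For the 8 genes with a peak it was 35 to 140 nt, and the part of such shared stretches in the listed peaks was not tested.

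Many H2A and H2B genes lie head to head and share the DNA between their starts. The table held 13 such divergent pairs of HIST rows with 239 to 346 nt between their starts. The quantiles of the members of a pair differed by a median of 0.053 and by up to 0.137, between HIST3H2A (0.940) and HIST3H2BB (0.803). Both members of the HIST1H2AA and HIST1H2BA pair were at the lowest quantile, HIST1H2BF stood in 2 pairs, and differences between rows not so paired were not computed. A peak was listed in exactly 1 member of 5 of the 13 pairs and in both members of none. Since only 8 of all 69 HIST rows had a peak, pairs with a peak in both would be few in any case. HIST1H2AM (peak, 0.952) faced HIST1H2BO (no peak, 0.894), HIST1H2AH (peak, 0.907) faced HIST1H2BK (no peak, 0.893), and HIST2H2BE (peak, 0.813) faced HIST2H2AC (no peak, 0.820). HIST1H3H (peak) faced HIST1H2BL. Its peak, around the stop codon, was at position 2251 of 2338 nt, so its 411 nt coding sequence lies far from the row's start. The long HIST1H3D row (peak) faced HIST1H2BF, as did HIST1H2AD, which the HIST1H3D row overlaps by 453 nt.

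Histone genes outside the clusters, which mostly have longer polyadenylated messages, also carried peaks. Of 15 replacement and other histone genes found, 7 had one, against 35.1% of coding rows outside the clusters. Of the 7 at quantiles of 0.9 and over 6 did, against 69.8% of coding rows outside the clusters in that range. H2AFX, the variant phosphorylated at DNA breaks, had 2 peaks with a top score of 3.38 in the 3' UTR, and H1F0, a linker histone of resting cells, 3 with a top score of 3.33 in the 5' UTR. H2AFZ, a variant at promoters, scored 2.83 around the stop codon. H2AFV (2.76), H3F3B (2.67) and H2AFY (2.45) had their top peak at the transcript start, and H2AFJ (2.33) in the coding sequence. H1FX, at quantile 0.997, and CENPA, the centromeric H3 variant, at 0.823 had none. The 6 others without a peak were H2AFY2 at 0.349 and H1FNT, H1FOO, H2AFB2, H2AFB3 and H2BFWT at the lowest quantile.

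The factors that make and degrade histone mRNA carried peaks in 18 of 23 genes, all 23 of them expressed. Of coding rows outside the clusters above the lowest quantile, 45.9% had a peak. SLBP, which binds the stem-loop, had 1 around the stop codon (2.86, quantile 0.902). NPAT, the activator of histone transcription, had 2 (top score 4.03), and CASP8AP2, or FLASH, a component of histone locus bodies, 4 (4.55), both led by coding sequence peaks. The U7 snRNP proteins LSM10 (2.37) and LSM11 (2.83) had 1 each, and so did the shared Sm proteins SNRPB (3.80), SNRPG (3.26), SNRPD3 (2.94), SNRPE (2.92) and SNRPF (2.65). The decay factors UPF1 (3 peaks, 5.31), ZCCHC11 (2 peaks, 4.45), the exonuclease ERI1 (4.03) and LSM1 (2.18) had peaks, as did ARS2, now SRRT (2.97), NCBP1 (2.78), COIL (2.61) and CPSF2 (2.05). ZNF473, CPSF3, SYMPK, CSTF2 and MIF4GD had none.

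Of 20 genes for histone chaperones and partners, all expressed, 17 had a peak, against 45.9% of expressed coding rows outside the clusters. CHAF1A, the large subunit of the CAF-1 assembly factor, had 3 with a top score of 5.29, and CABIN1 (5.08), HIRA (4.66) and UBN1 (3.24) of the HIRA complex had peaks. ASF1A scored 4.57, the acetyltransferase HAT1 4.55, the importin IPO4 3.85, ATRX 3.79 and SUPT6H 3.71. DAXX (3.42), HJURP (3.41), NAP1L4 (3.22), RBBP4 (2.99), ASF1B (2.61), SUPT16H (2.58), CHAF1B (2.49) and NASP (2.10) followed. RBBP7, NAP1L1 and SSRP1 had none, at quantiles of 0.976, 0.874 and 0.989. At quantiles of 0.6 and over, 17 of 22 processing factors (77.3%) and 16 of 19 chaperones (84.2%) had a peak, against 65.0% of coding rows outside the clusters in that range. The processing factors and chaperones are longer genes than the histones, so their shares and that of the clusters differ in length as well as in function.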

How the data were processed

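RNA from 7 libraries, 4 m6A-IP and 3 input, grouped by their titles, was analysed from 1 table deposited by the authors. Expression in it is a fraction between 0 and 1, a rank quantile per the file headers. The deposited peak columns give position, exon, segment and the authors' peak score, whose scale is not stated. No source used here names the aligner, the peak caller or the build. Because values were deposited for all libraries jointly, depth is unknown and no test was made. Shares were counted over rows and set beside those of other rows. The histone rows, the lists and the classes of span and quantile were chosen with earlier results of these data known. Every row with a peak is named, and the 6 most expressed without one. List members with a peak are named with their top score. Others were named after their values were seen. GENCODE release 29 gave coding sequences, from the single-exon transcript where there was one. RefSeq (GRCh38.p14) gave transcript starts. Counting was tested on a simulated table. Python 3.11.15, pandas 2.3.3 and scipy 1.17.1 were used.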

Additional observations from a re-analysis of the deposited data

How the results depend on the processing

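The share of HIST rows with a peak was 11.6% (95% Wilson interval 5.99 to 21.2%), 14.5% above the lowest quantile, 17.0% at quantiles of 0.6 and over and 12.1% with 1 entry per gene symbol. With a score of 3 or more required it was 0%, and the number of HIST peaks 0 in place of 8, since the highest score fell just short of 3. The shares at the transcript start and around the stop codon then had no value. The number of peaks stayed at 8 when overlapping rows of one strand were counted once. That number could not change, since the only such rows were HIST1H3D and HIST1H2AD, and HIST1H2AD had no peak. Segment shares and the median score did not change with 1 peak per row, as no row had more. The median quantile of HIST rows was 0.804, and 0.875 above the lowest quantile. The share of other short coding rows with a peak (13.3% under 1000 nt) depended on the limit, at 4.65% under 700 nt and 23.8% under 2000 nt, and on expression, at 28.3% for quantiles of 0.6 and over. That range was chosen after seeing the data. Stem-loop letters were found in 86.2% of 29 HIST genes in the loose form and in 44.8% in the commonest form alone. No paired analysis was possible because no column belonged to a single library, and for the same reason no library was left out. What the library depth limits is unknown.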
